A study of Mus musculus with 16 samples.

Results

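Germinal center B cells (GCB) were compared with follicular B cells (FoB) inside one genotype, mice that lose the kinase gene Rock2 in mature B cells. The comparison rests on 6 RNA-seq libraries, 3 of cKO GCB and 3 of cKO FoB, of 16 samples in the series. Each GCB library was set against the FoB library that carries the same replicate number. The cKO (conditional knockout) mice carried Rock2flox/flox with CD23-Cre, a recombinase driven by a promoter that is active from the mature, CD23-positive stage of B cells onward. The WT mice, used here to ask whether the cell type difference changed with genotype and to share one estimate of the spread, carried the same Rock2 flox/flox alleles with no Cre named. All mice were C57BL/6, 10 weeks old and immunized 7 days earlier with 100 µg of NP-CGG, a hapten-coupled foreign protein, in the adjuvant alum. Cells were sorted from spleen by flow cytometry, and polyadenylated RNA was sequenced. The labels give no sort gates, no number of mice per library and no sex, and nothing says that replicates came from separate animals. The p-values therefore measure the spread between these libraries, which may in part be technical.

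A follicular B cell is a resting, recirculating cell of the naive repertoire. After antigen contact and T cell help, some of these cells enter the germinal center, where they divide rapidly, mutate their antibody genes, switch antibody class and are selected for affinity. In the dark zone cells divide and mutate, while in the light zone they test their receptor against antigen and seek T cell help. ROCK2 is a serine-threonine kinase downstream of the GTPase RhoA that acts on myosin and the actin cytoskeleton.

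The cKO libraries held 25080547 to 26967943 gene counts each. Levels are CPM, read counts normalised to library size and scaled by TMM factors, in the order of numbers 1, 2 and 3, and log2 fold changes are GCB minus FoB ± standard error from edgeR's quasi-likelihood fit with the number as a block. A gene is said to rise or fall only where its Benjamini-Hochberg adjusted p over all 13708 genes tested was under 0.05. The first principal component of log2 CPM held 71.85% of the variance of all 12 RNA libraries and separated GCB from FoB, with cKO FoB at -81.48, -80.32 and -83.78 and cKO GCB at 59.50, 78.59 and 79.77. Library 1 of cKO GCB stood nearest to the FoB side. The second component, with 12.17%, separated number 2 from the other two in both cell types. Mitochondrial transcripts took 2.430%, 3.970% and 1.682% of counts in FoB and 2.522%, 4.511% and 1.045% in GCB, so number 2 was the highest in both. In bulk RNA, a larger share of cells of one kind and more RNA per cell cannot be told apart.

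Rock2 itself (chr12:16894978-16988274, GRCm38.p6) measured 123, 87.4 and 96.5 CPM in FoB and 119, 131 and 92.6 CPM in GCB. The groups overlapped, and the change of 0.17 ± 0.12 did not pass the test (adjusted p = 0.22). It turned below 0 (-0.02) when library 2 of cKO GCB was left out. Against WT of the same cell type, Rock2 was lower in cKO GCB by a log2 difference of -0.53 ± 0.12 (adjusted p = 0.033; WT GCB at 198, 154 and 145 CPM), and in cKO FoB the difference was -0.43 ± 0.12 (adjusted p = 1; WT FoB at 151, 129 and 132 CPM). These counts cover the whole gene and the deleted part is not named in the labels, so they do not measure how much of the locus was recombined. The paralog Rock1 measured 176, 183 and 129 CPM in FoB and 201, 230.1 and 148 CPM in GCB. Its groups overlapped, its rise was 0.24 ± 0.096 (adjusted p = 0.0378), and it passed in 5 of 15 alternatives. It was lost with either other filter on low counts, without the block, without any 1 cKO FoB library and without library 2 of cKO GCB (0.15, adjusted p = 0.207).

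More genes changed between the cell types of cKO mice than did not. In cKO GCB 4760 genes were higher (34.7% of those tested) and 4698 lower (34.3%). Counts of list members given below stand against these shares. A test against a 2-fold change called 1595 higher (11.6%) and 1382 lower (10.1%). The median log2 fold change of all genes tested was -0.02, and the groups did not overlap for 7341 genes (53.6%). Without the number as a block, 3402 were called higher and 2982 lower, and beyond 2-fold 1268 higher and 876 lower.

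**Figure D1:**
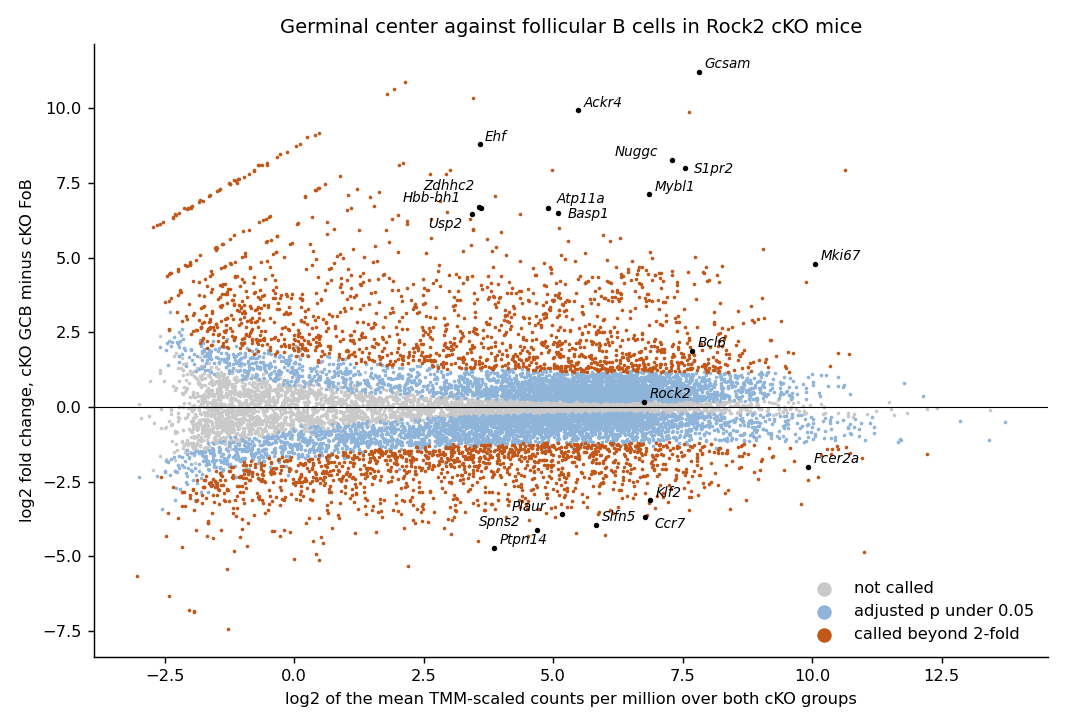
Log2 fold change of cKO GCB minus cKO FoB (vertical axis) against the log2 of the mean CPM over both cKO groups (horizontal axis), 1 point per gene. Grey points were not called, blue points passed adjusted p under 0.05 and orange points passed the test against a 2-fold change. Gcsam at 11.22 and Ackr4 at 9.94 lie near the top, and Ptpn14 at -4.71 near the bottom.

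The most increased genes named here, among those with at least 20 CPM in GCB, were nearly silent in FoB. Gcsam, which encodes a signaling and motility protein of germinal center cells, gave 1, 5 and 9 reads in FoB and 10372, 13904 and 10495 in GCB. Ackr4, a receptor that scavenges the chemokines CCL19 and CCL21, gave 1, 0 and 6 reads in FoB and 2083, 2491 and 2355 in GCB. Both were at the edge of detection in every FoB library and abundant in every GCB library, so their fitted values (11.22 ± 0.64 and 9.94 ± 0.58) depend on the prior count of the fit. S1pr2, the sphingosine-1-phosphate receptor that holds B cells inside the follicle center, measured 1.13, 1.35 and 1.88 CPM in FoB and 332, 339 and 445 CPM in GCB, a rise of 8.01 ± 0.32 (adjusted p = 5.65e-10). Its lowest GCB library lay far above its highest FoB library. Mybl1, the transcription factor A-MYB, measured 1.61, 1.68 and 1.70 CPM in FoB and 226, 274 and 189 CPM in GCB and rose by 7.12 ± 0.31. Nuggc, a nuclear GTPase of germinal center cells, measured 0.512, 1.56 and 1.05 CPM in FoB and 278, 331 and 331 CPM in GCB (8.29 ± 0.48). The remaining members of this group rose by 6.48 to 8.80. They were the ETS factor gene Ehf (8.80, with 3, 0 and 1 reads in FoB) and the embryonic globin gene Hbb-bh1 (6.69). Also in this group were the palmitoyltransferase gene Zdhhc2 (6.66), the lipid flippase gene Atp11a (6.65), the membrane protein gene Basp1 (6.50) and the deubiquitinase gene Usp2 (6.48). The adult globin gene Hba-a1 gave 4, 11 and 11 reads in FoB and 1, 15 and 6 in GCB. Another adult globin gene, Hbb-bt, gave 30, 30 and 33 reads in FoB and 40, 79 and 85 in GCB. Its rise was 1.13 ± 0.40 (adjusted p = 0.0225).

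Among the most decreased genes with at least 20 CPM in FoB were receptors and interferon-linked genes. Ccr7, the chemokine receptor that guides lymphocytes to the T cell zone, measured 176, 251 and 186 CPM in FoB and 21.4, 15.6 and 10.00 CPM in GCB, a fall of -3.69 ± 0.22 (adjusted p = 7.95e-09). The 3 GCB libraries all lay below the FoB libraries by a wide margin, with number 1 the highest of the GCB. Spns2, which encodes a sphingosine-1-phosphate transporter, measured 45.2, 44.5 and 56.1 CPM in FoB and 4.32, 1.69 and 2.31 CPM in GCB (-4.12 ± 0.24), with no overlap between groups. Ptpn14, a tyrosine phosphatase gene, had the most negative value of this group at -4.71 ± 0.28, and its locus overlaps another gene. Fcgrt, the heavy chain of the neonatal Fc receptor, fell by -4.33. The imprinted noncoding RNA Peg13 fell by -4.29. Slfn5 (-3.95), a member of the interferon-regulated Schlafen family, and Ifi214 (-3.80) and Ifi213 (-3.69), members of the interferon-inducible Ifi200 family, also fell. Others that fell were the actin-binding calponin gene Cnn3 (-3.62), the ubiquitin ligase gene Rnf144a (-3.60) and the urokinase receptor gene Plaur (-3.59).

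The labelled identity of the cells was visible in their defining markers. Of 19 tested germinal center markers 16 rose and 1 fell, with a median log2 fold change of 4.42. Fas, the death receptor used to identify germinal center cells, measured 5.43, 7.44 and 4.77 CPM in FoB and 78.6, 88.7 and 75.8 CPM in GCB, a rise of 3.80 ± 0.13. The DNA repair genes Neil1 (4.71) and Hmces (4.18) rose with it. Cd79b, which encodes a signaling chain of the B cell receptor and is the single marker that fell, changed by -0.97. Leaving out library 1 of cKO GCB brought a second marker below the threshold in the lower direction. Markers common to B cells were high in both cell types, with a summed level of 26400 to 31050 CPM in FoB and 12900 to 15620 in GCB, unscaled. All 10 of them fell, such as the receptor gene Cd22 (-1.04) and the kinase gene Blk (-1.12).

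Of 20 transcription factor genes of the germinal center program 7 were higher and 6 lower, with a median of 0.08, shares near those of all genes tested (34.7% and 34.3%). Bcl6, the repressor that defines the germinal center state, measured 72.9, 83.1 and 107 CPM in FoB and 306, 265 and 402 CPM in GCB, a rise of 1.89 ± 0.12 (adjusted p = 1.41e-08). Its lowest GCB library was above its highest FoB library. Mef2b, an activator of Bcl6, measured 1.61, 1.35 and 3.54 CPM in FoB and 90.5, 59.1 and 216 CPM in GCB (5.75 ± 0.21), with the reservation that its locus overlaps a neighbour. Pou2af1, the coactivator OBF-1, rose by 1.77 ± 0.10, with the same reservation. In the other direction Irf4, a factor needed at germinal center entry and exit, measured 216, 199 and 213 CPM in FoB and 97.8, 93.6 and 59.4 CPM in GCB (-1.35 ± 0.15). The B lineage factor gene Ebf1 fell by -1.31 and Foxp1, which restrains germinal center entry, fell by -1.43.

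**Figure D2:**
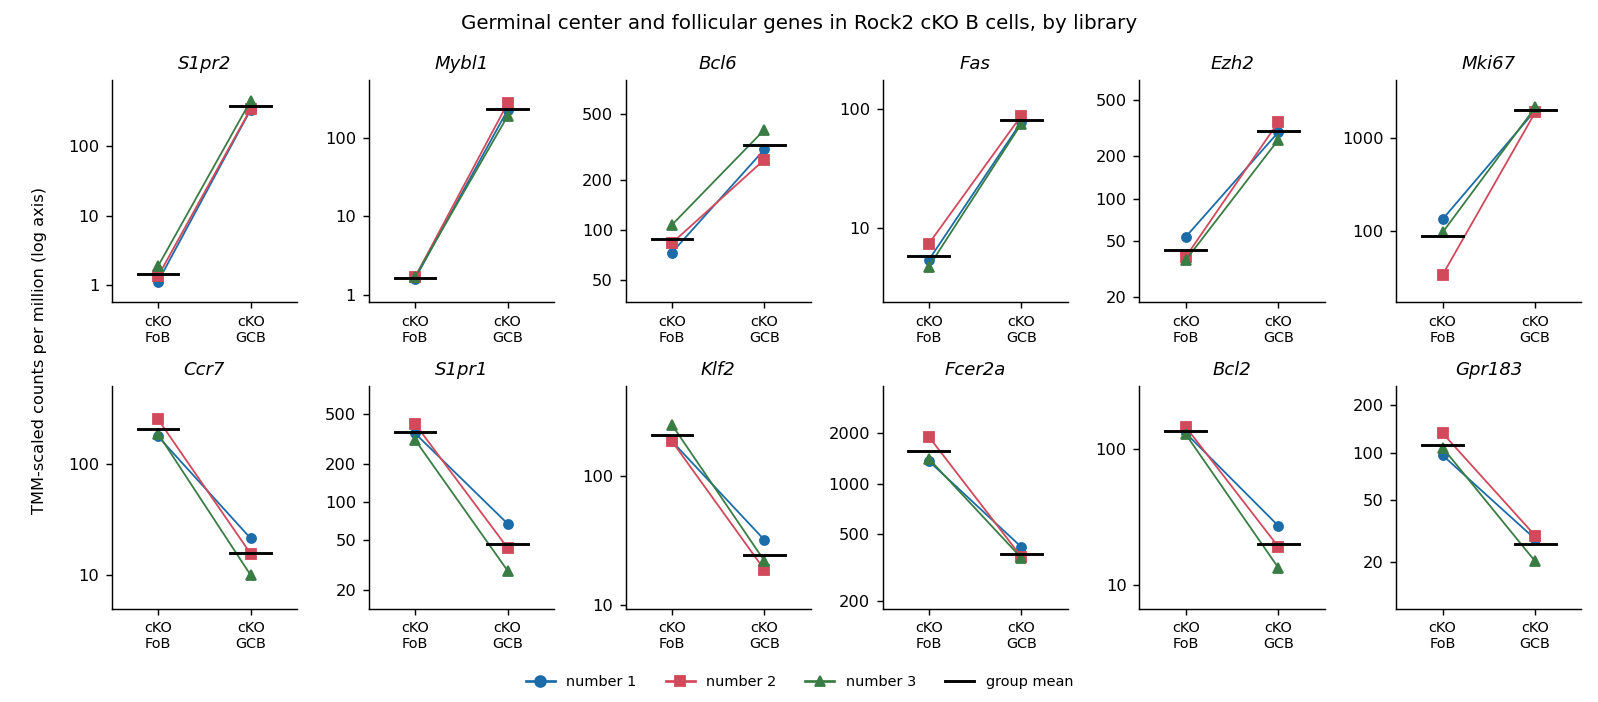
CPM on a log axis for 12 germinal center and follicular genes in the 3 cKO FoB and 3 cKO GCB libraries, with lines joining libraries of the same number and black bars at group means. In each panel the groups are separate: S1pr2, Mybl1, Bcl6, Fas, Ezh2 and Mki67 are higher in every GCB library, and Ccr7, S1pr1, Klf2, Fcer2a, Bcl2 and Gpr183 lower in every one.

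Cell division genes rose as a block. All 26 tested genes of the G2 and M phases rose, each of them beyond 2-fold, with a median of 4.32, and all 27 S phase genes rose, 25 of them beyond 2-fold, with a median of 2.92. Mki67, the proliferation antigen gene, measured 133, 33.0 and 95.5 CPM in FoB and 2010.0, 1920.0 and 2173 CPM in GCB, a rise of 4.79 ± 0.32 (adjusted p = 1.99e-08). FoB number 1 was the highest and FoB number 2 the lowest of the resting libraries. Among mitotic genes the kinase gene Aurka rose by 4.16 ± 0.19, the checkpoint gene Mad2l1 by 2.87 ± 0.13 and Foxm1, the transcription factor of late cell cycle genes, by 3.68 ± 0.18. Dark zone genes, a list that shares members with the mitotic one, were higher in 13 of 15 cases and lower in 2, with a median of 4.16. The stress gene Gadd45g was one that fell (-2.29 ± 0.25), and without library 2 of cKO FoB, or library 2 or 3 of cKO GCB, 1 fell. Among replication genes the helicase subunit gene Mcm4 rose by 2.67 ± 0.11 and the flap nuclease gene Fen1 by 2.21 ± 0.091.

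The promoters of cell cycle genes are known for short elements that tie them to a phase. Late genes carry the element TTTGAA (the CHR) and CCAAT boxes, and S phase genes carry E2F sites. RefSeq windows of 300 bases, from 250 before to 50 after each transcript start on GRCm38.p6, were matched for 20 of the 26 late genes. TTTGAA on either strand was in 15 of their 21 windows (71.4%), against 17.9% of all 32851 mouse windows. CCAAT on either strand was in 18 of the 21 (85.7%), against 37.4%. These matches describe the letters in these windows and are not evidence of a bound factor. Stretches of 60 bases are shown for late genes whose messages rose, 5′ to 3′ on the gene's strand, with the element (or its reverse complement) in capitals.
Cdk1 (chr10:69352913-69352972, minus strand): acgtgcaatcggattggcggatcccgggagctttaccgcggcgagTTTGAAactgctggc
Cdc20 (chr4:118437344-118437403, minus strand): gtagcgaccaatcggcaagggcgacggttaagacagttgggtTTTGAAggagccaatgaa
Top2a (chr11:99024190-99024249, minus strand): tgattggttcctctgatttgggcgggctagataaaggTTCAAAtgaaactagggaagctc
Ccnb2 (chr9:70421689-70421748, minus strand): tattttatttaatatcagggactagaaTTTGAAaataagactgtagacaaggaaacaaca
These sequences were picked for their element after the values were seen. Only matches before the transcript start were taken for display. In Ccnb2 the TTTGAA shown lies at -167 from the start, and another at 4 is outside the stretch. Which of these matches acts was not tested. Cdk1, the mitotic kinase gene, measured 13.9, 8.70 and 11.8 CPM in FoB and 220.1, 289 and 251 CPM in GCB, a rise of 4.49 ± 0.28. Cdc20, an activator of the anaphase-promoting complex, rose by 4.41 ± 0.23, the topoisomerase gene Top2a by 4.18 ± 0.29 and the cyclin gene Ccnb2 by 4.41 ± 0.27. None of these genes showed an overlap between groups.

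For S phase genes the E2F forms TTTGGCGC, TTTCGCGC and TTTCCCGC were searched on both strands, and 22 of the 27 genes were matched to 27 windows. At least one form was in 10 windows (37.0%), against 1.84% of all windows. TTTGGCGC was in 5 (18.5%, against 0.514%), TTTCGCGC in 5 (18.5%, against 0.323%) and TTTCCCGC in 4 (14.8%, against 1.07%). TTTGGCGC and TTTCGCGC share the palindrome GCGC and can overlap on opposite strands, as they do in the first sequence below. A pair of helicase subunit genes is shown, again picked for their element, with TTTGGCGC or its reverse complement in capitals.
Mcm5 (chr8:75109333-75109392, plus strand): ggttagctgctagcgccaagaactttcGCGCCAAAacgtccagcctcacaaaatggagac
Mcm6 (chr1:128359720-128359779, minus strand): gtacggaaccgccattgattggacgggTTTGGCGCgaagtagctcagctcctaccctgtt
Mcm5 measured 114, 105 and 120.2 CPM in FoB and 722, 780.4 and 964 CPM in GCB, a rise of 2.86 ± 0.14, and Mcm6 rose by 2.99 ± 0.15. E2f1, one of the factors that read this element, rose by 2.63 ± 0.12 from a mean of 12.5 ± 2.42 to 77.7 ± 15.4 CPM.

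Genes that set the G1 gate were mixed, with 14 of 20 higher and 5 lower. Ccnd3, the D-type cyclin required for dark zone proliferation, measured 64.1, 60.5 and 79.0 CPM in FoB and 272, 258 and 451 CPM in GCB (2.23 ± 0.12). Ccnd2, the D-type cyclin of resting and newly stimulated B cells, measured 204, 192 and 178 CPM in FoB and 70.3, 62.1 and 41.8 CPM in GCB (-1.74 ± 0.15). These cyclins moved in opposite directions with no overlap between groups for either. The inhibitor gene Cdkn1b (p27) fell by -2.25 ± 0.11. All 18 genes of a quiescence list fell, with a median of -1.75, among them the Schlafen gene Slfn2 (-2.53) and Klf2 (-3.12), the factor that maintains recirculating naive lymphocytes.

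Mutation and repair genes rose as well: 20 of 24 were higher and 1 lower, with a median of 1.22. They included the error-prone polymerase gene Polh (3.70 ± 0.16), the mismatch repair gene Msh6 (2.18 ± 0.098) and the exonuclease gene Exo1 (3.50 ± 0.16). Polh measured 19.9, 24.9 and 18.2 CPM in FoB and 240.2, 304 and 270.0 CPM in GCB, so its groups were far apart. Smug1, a uracil glycosylase, was the one that fell (-1.35 ± 0.14). Of 23 chromatin genes 13 rose and 8 fell, against 34.7% and 34.3% of all genes tested. Ezh2, the H3K27 methyltransferase gene that germinal center cells require, measured 53.5, 38.5 and 36.6 CPM in FoB and 297, 350.4 and 262 CPM in GCB (2.85 ± 0.18). The maintenance DNA methyltransferase gene Dnmt1 rose by 2.89 ± 0.11, the lamin gene Lmnb1 by 3.22 ± 0.14 and the remodeller gene Smarca4 by 2.25 ± 0.10. Tet2, a 5-methylcytosine oxidase gene, fell by -1.38 ± 0.18, with overlapping groups. Without number 3 only 5 of the chromatin genes were lower, and without the block 1.

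Genes of naive follicular cells fell, 19 of 20 with a median of -2.10. Fcer2a, which encodes CD23 and whose promoter drives the Cre, measured 1363, 1903 and 1408 CPM in FoB and 421, 368 and 363 CPM in GCB (-2.002 ± 0.15). Cd38, lost from mouse germinal center cells, measured 289, 428 and 236 CPM in FoB and 68.7, 55.2 and 25.1 CPM in GCB (-2.71 ± 0.19). In both genes the groups were apart, and the smallest fall was in the pair of number 1 for each. The complement regulator gene Cd55 fell by -3.43 ± 0.16. Cd24a, the one member that rose, changed by 1.10 ± 0.099. The median of the list was -1.73 in the pair of number 1, -2.22 in number 2 and -2.44 in number 3.

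Receptors that position B cells changed in both directions, 9 of 22 higher (5 without the block) and 11 lower, against 34.7% and 34.3% of all genes tested. S1pr1, the receptor that brings lymphocytes out of tissue, measured 351, 417 and 312 CPM in FoB and 67.4, 43.3 and 28.6 CPM in GCB (-3.01 ± 0.17). Its level fell in all 3 pairs while that of S1pr2 rose in all 3. Gpr183 (EBI2), which guides cells to the outer follicle, measured 96.0, 133 and 107 CPM in FoB and 28.1, 29.6 and 20.3 CPM in GCB (-2.10 ± 0.14). Cxcr5, the receptor for the follicle chemokine CXCL13, measured 345, 516 and 454 CPM in FoB and 184, 211 and 213 CPM in GCB (-1.09 ± 0.092). Neither gene's groups overlapped. Cxcr4, the dark zone receptor, measured 132, 198 and 91.7 CPM in FoB and 182, 219 and 179.5 CPM in GCB, and its groups overlapped. Its rise of 0.53 ± 0.16 (adjusted p = 0.00964) was 0.38 without number 3 of either cell type and no longer passed (adjusted p = 0.0805 without FoB and 0.0707 without GCB). Rgs13, a regulator of G proteins that dampens chemokine signaling, rose by 5.08 ± 0.19, and Gna13, the G protein subunit that couples S1PR2 to RhoA, by 1.10 ± 0.1. The cannabinoid receptor gene Cnr2 (-2.52) and the lysophosphatidylserine receptor gene Gpr174 (-2.58) fell.

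Of 27 adhesion genes 10 were higher and 11 lower, with a median of -0.02, near the shares and the median of all genes tested. Efnb1, an ephrin of germinal center cells, measured 1.40, 2.02 and 3.62 CPM in FoB and 51.3, 55.8 and 111 CPM in GCB (4.95 ± 0.17), and Plxnb2, the plexin that binds semaphorin 4C, measured 25.7, 22.4 and 27.4 CPM in FoB and 477, 465 and 697 CPM in GCB (4.43 ± 0.17). Both were low in every FoB library. The integrin gene Itgb3 rose by 1.49 ± 0.12. Itgb7, whose protein pairs with the alpha-4 chain for gut homing, fell by -2.61 ± 0.17 and the selectin ligand gene Selplg by -2.13 ± 0.17.

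Of 27 tested genes of ROCK, actomyosin and the membrane-linking ERM proteins, the pathway of the deleted gene, 9 rose and 12 fell, with a median of -0.08. Of all genes tested 34.7% rose and 34.3% fell. Beyond 2-fold 0 rose and 4 fell, where 11.6% of all genes rose and 10.1% fell. Cfl1, which encodes the actin-severing protein cofilin downstream of LIM kinase, measured 984, 1397 and 1155 CPM in FoB and 1746, 1943 and 2207 CPM in GCB (0.75 ± 0.10). The actin gene Actg1 rose by 0.65 ± 0.11. Myl12b, a regulatory light chain of nonmuscle myosin, measured 280.0, 412 and 344 CPM in FoB and 79.4, 75.6 and 74.8 CPM in GCB (-2.15 ± 0.12), so every GCB library lay well below every FoB library. Ssh1, the phosphatase that reactivates cofilin, fell by -1.88 ± 0.15. Without the block, 4 of the 27 were higher and 7 lower, and without number 1 or number 3, 4 were higher.

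Light zone genes were lower more often than higher, 12 against 5 of 20, with a median of -0.93. Cd83, a marker used to sort light zone cells, measured 465, 629.8 and 580.0 CPM in FoB and 253, 268 and 258 CPM in GCB (-1.09 ± 0.10). Cd86, a costimulatory ligand used with it, measured 35.4, 42.1 and 28.7 CPM in FoB and 89.2, 95.0 and 60.0 CPM in GCB (1.19 ± 0.10). These surface markers thus moved in opposite directions, each with no overlap. Myc, induced in positively selected light zone cells, measured 141, 69.5 and 119 CPM in FoB and 62.9, 37.6 and 71.9 CPM in GCB, a fall of -0.92 ± 0.12 with overlapping groups. Traf1, a signaling adaptor gene, rose by 1.39, while the NF-kappaB inhibitor gene Nfkbia fell by -1.73 and the receptor gene Cd40 by -1.41. Without number 1, and also without the block, 3 of the list were higher. Of 17 immediate early genes 16 fell and 1 rose, with a median of -2.11, such as Nr4a1 (-2.93 ± 0.18), a reporter of antigen receptor signaling, Egr3 (-3.001 ± 0.19) and Ier5 (-2.17 ± 0.14). Without the block 10 of them were lower. The 1 that rose did not pass without library 2 or 3 of either cKO group, nor in 5 further alternatives.

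B cell receptor signaling genes were lower in 14 of 26 cases and higher in 4, with a median of -0.38. Plcg2, the phospholipase of the receptor, rose by 0.49 ± 0.093 and its adaptor gene Blnk by 0.39 ± 0.082. Cr2, the complement receptor CD21, measured 1102, 1310.0 and 990.4 CPM in FoB and 304, 314 and 178 CPM in GCB (-2.13 ± 0.12), and the calcium channel gene Itpr1 fell by -1.34 ± 0.099. Without number 1, and also without number 3, 2 genes were higher. Of 17 genes of MHC class II and peptide loading 14 fell and 1 rose, with a median of -1.10. H2-Oa and H2-Ob, which encode the H2-O (DO) inhibitor of peptide loading, fell by -2.22 ± 0.17 and -1.81 ± 0.13. H2-Oa measured 381, 521 and 484 CPM in FoB and 106, 81.3 and 105 CPM in GCB, with no overlap. The protease gene Ctss fell by -1.68 ± 0.11, with the reservation that its locus overlaps another gene, and the protease gene Lgmn rose by 0.59 ± 0.079.

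Of 20 costimulation genes 14 fell and 4 rose. Icosl, the ligand through which B cells keep contact with follicular helper T cells, measured 414, 434 and 482 CPM in FoB and 93.0, 61.9 and 67.2 CPM in GCB (-2.59 ± 0.14). Cd274, which encodes PD-L1, measured 72.5, 66.1 and 55.01 CPM in FoB and 20.5, 11.8 and 8.75 CPM in GCB (-2.29 ± 0.14). Both ligands were lower in each GCB library than in any FoB library. Cd80, the other B7 ligand, rose by 2.44 ± 0.24 from a low level of 1.86 ± 0.613 CPM. With a filter of at least 5 CPM in 3 libraries, 2 genes of the list were higher.

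Every one of 24 interferon-stimulated genes fell, 18 of them beyond 2-fold, with a median of -1.66. The RNA sensor gene Ddx58 (RIG-I) measured 166, 195 and 149 CPM in FoB and 45.2, 39.2 and 19.96 CPM in GCB (-2.34 ± 0.17). Ifit1, whose protein binds foreign RNA caps, fell by -3.33 ± 0.24 and Ifit3 by -3.13 ± 0.21. Pml, the scaffold of nuclear bodies, measured 332, 355 and 437 CPM in FoB and 122, 81.0 and 64.9 CPM in GCB (-2.06 ± 0.21). In no gene named here did the groups overlap.

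Energy genes rose in part. Of 19 tested glycolysis genes 13 rose and 4 fell, with a median of 1.17, and of 24 oxidative phosphorylation genes 23 rose, 1 of them beyond 2-fold, with a median of 0.67. Gapdh, the glycolytic dehydrogenase gene, measured 302, 398 and 352 CPM in FoB and 1120.0, 1181 and 1398 CPM in GCB (1.82 ± 0.11), and Tpi1 rose by 1.81 ± 0.092. The glucose transporter genes Slc2a1 (-0.77 ± 0.11) and Slc2a3 (-0.82 ± 0.078) fell, while the enzymes that act on glucose inside the cell mostly rose. Cycs, the gene of cytochrome c, rose by 1.28 ± 0.10 and Atp5b, of the ATP synthase, by 1.08 ± 0.089. None of the 7 tested mitochondrially encoded genes passed the test, and without number 2, which had the highest mitochondrial share, 3 were lower. In the MYC and ribosome biogenesis list 10 of 21 rose and 5 fell, against 34.7% and 34.3% of all genes tested. The nucleolin gene Ncl rose by 1.00 ± 0.10 and the MAX partner gene Mxd3 by 3.05 ± 0.31.

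Cholesterol synthesis genes rose in cKO GCB, 19 of 22 higher, 1 lower and 7 higher beyond 2-fold, with a median of 1.09. Cholesterol is made from acetyl-CoA along the mevalonate pathway, whose enzymes are induced by SREBP2 when sterols are low. Hmgcs1, the synthase that starts the pathway, measured 48.8, 70.3 and 44.9 CPM in FoB and 116, 152 and 128 CPM in GCB (1.29 ± 0.11, adjusted p = 2.93e-07). Sqle, squalene epoxidase, measured 30.1, 38.3 and 24.9 CPM in FoB and 82.8, 113 and 99.3 CPM in GCB (1.68 ± 0.11). In both genes all GCB libraries were above all FoB libraries. Acat2, which joins 2 molecules of acetyl-CoA, rose by 2.15 ± 0.11 and the demethylase gene Cyp51 by 1.56 ± 0.096. Ggps1, which makes geranylgeranyl diphosphate for protein prenylation, fell by -0.81 ± 0.086. Of 15 tested sterol sensing and uptake genes 3 were higher and 7 lower, where 34.7% of all genes tested were higher and 34.3% lower. The sterol sensor gene Insig1 rose by 0.74 ± 0.12 and the sterol carrier gene Stard4 by 1.27 ± 0.092, while Npc2, which exports cholesterol from lysosomes, fell by -1.35 ± 0.11. Without number 3, and also without the block, 3 of the uptake genes were lower. Of 13 genes tied to the oxysterol receptors LXR 3 rose and 5 fell, against 34.7% and 34.3% of all genes tested. The efflux transporter genes Abca1 (-2.64 ± 0.14) and Abcg1 (-2.96 ± 0.23) and the ubiquitin ligase gene Mylip (-2.53 ± 0.17) fell. The sterol element TCACNCCAC was in 1 of 20 windows for 17 matched cholesterol genes (5.0%, against 1.24% of all windows). That window belongs to Hmgcs1 and is shown with the element in capitals.
Hmgcs1 (chr13:119690187-119690246, plus strand): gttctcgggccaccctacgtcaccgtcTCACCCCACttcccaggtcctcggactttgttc

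Survival genes shifted between family members. Bcl2, the anti-apoptotic gene of naive cells, measured 130.4, 145 and 128 CPM in FoB and 27.1, 19.1 and 13.4 CPM in GCB (-2.79 ± 0.15), and Mcl1, on which germinal center cells depend, fell by -0.69 ± 0.092. Bcl2l1, the gene of BCL-XL, rose by 1.28 ± 0.13 and the executioner gene Bak1 by 1.21 ± 0.095. In the family as a whole 9 of 14 rose and 3 fell. Of 18 p53 targets and regulators 14 rose and 2 fell (1 without the block), with a median of 0.67. Ccng1, a cyclin gene induced by p53, measured 102, 153 and 84.8 CPM in FoB and 241, 354 and 219 CPM in GCB (1.27 ± 0.087), and Cdkn1a, the cell cycle inhibitor p21, measured 1.88, 1.56 and 1.81 CPM in FoB and 8.53, 10.5 and 9.28 CPM in GCB (2.42 ± 0.21). Both pairs of groups were separate, although Cdkn1a stayed low. Sesn1, a p53 target that restrains mTORC1, fell by -2.18 ± 0.12. Fas is a member of this list as well as a germinal center marker.

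Antibody genes separated by class. Ighg1, the IgG1 constant region, measured 8.54, 12.7 and 17.1 CPM in FoB and 2775, 3373 and 3320.0 CPM in GCB, a rise of 7.93 ± 0.52 (adjusted p = 1.69e-08). Ighe, of IgE, rose by 7.95 ± 0.46, with 15, 0 and 6 reads in FoB and 1652, 1707 and 1535 in GCB. Ighd, of IgD, measured 3511, 5419 and 3005 CPM in FoB and 222, 116 and 83.2 CPM in GCB (-4.87 ± 0.27). Counts of the IgG1 and IgE constant regions were thus higher in all 3 GCB libraries and those of IgD lower in all 3. These counts per gene do not show whether a read came from a switched antibody gene, so switching itself was not measured. Igkc fell by -1.06 ± 0.11 while the lambda gene Iglc1 rose by 1.84 ± 0.10. Reads from neighbouring constant regions share sequence and their split between these genes is uncertain.

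Plasma cell genes rose in 12 of 16 cases and fell in 3, with a median of 0.88. Prdm1, the gene of BLIMP-1, measured 2.84, 3.11 and 2.57 CPM in FoB and 7.78, 8.17 and 4.96 CPM in GCB (1.28 ± 0.21), so its level stayed low in GCB. Slamf7 rose by 2.00 ± 0.089 and Edem1, which clears misfolded protein from the endoplasmic reticulum, by 1.18 ± 0.090. Sdc1, the plasma cell surface marker CD138, fell by -2.07 ± 0.20, as did Fkbp11 (-1.52 ± 0.27). Of 15 memory precursor genes 4 rose and 10 fell. Nt5e (CD73) measured 1.23, 2.06 and 1.19 CPM in FoB and 27.7, 31.4 and 20.2 CPM in GCB (4.15 ± 0.24) and the repressor gene Bach2 rose by 0.82 ± 0.13, while Hhex, a factor of memory cells, fell by -3.03 ± 0.18.

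**Figure D3:**
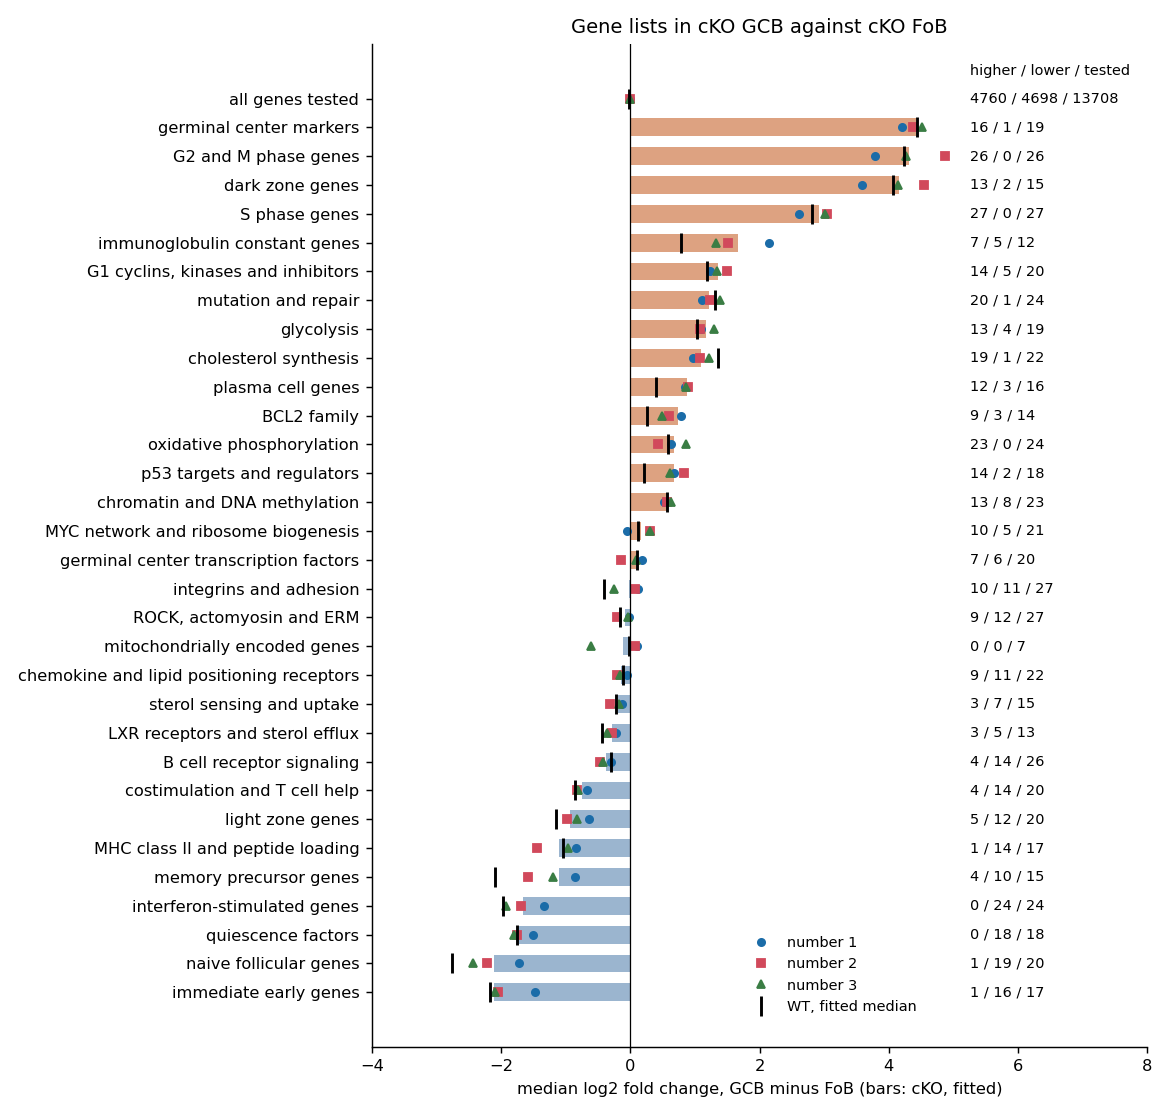
Median log2 fold change of cKO GCB minus cKO FoB for the gene lists (bars), the same within each pair of libraries with one number (symbols) and the WT median (black ticks), with counts higher, lower and tested at the right. Medians run from 4.42 for germinal center markers to -2.11 for immediate early genes, against -0.02 for all genes tested.

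Markers of other cells were low but not absent. Summed over 19 T cell markers, FoB held 86.8, 100.2 and 94.5 unscaled CPM and GCB 112, 101 and 89.0, so the groups overlapped. Most reads of this sum were from Lck alone, with 1666, 1499 and 1738 in FoB and 1793, 1496 and 1600 in GCB. The sum therefore mostly follows that gene. Of 17 tested T cell markers, 8 fell and 3 rose. Cd3e gave 28, 53 and 27 reads in FoB and 17, 21 and 6 in GCB, and Cd8a fell by -1.58 ± 0.34, while Thy1 (1.74 ± 0.22) and Pdcd1 (2.23 ± 0.51) rose. The count of falling T cell markers was 4 without library 2 of cKO FoB, 5 without library 3, 3 without library 2 of cKO GCB, 5 without library 3, 2 without the block and 0 with the filter of 5 CPM in 3 libraries. Natural killer cell markers, summed over 10, were at 34.1, 83.9 and 51.4 CPM in FoB and 24.0, 21.9 and 18.2 in GCB. 9 of them fell, such as the granzyme gene Gzma (-2.27 ± 0.17) and the perforin gene Prf1 (-1.46 ± 0.17), and 3 with that filter. Macrophage markers summed to 89.2 to 126 in FoB and 56.3 to 114 in GCB, with 3 of 10 tested lower, Adgre1 among them (-2.72 ± 0.30), and 1 higher, 0 without library 1 or 2 of cKO FoB or library 2 of cKO GCB. Most reads of that sum were from Mpeg1, with 1585, 2175 and 2066 in FoB and 1759, 1963 and 1091 in GCB. For Lyz2 the groups overlapped and its fall of -1.38 ± 0.51 was lost in 6 of 15 alternatives, among them DESeq2, no block and leaving out library 3 of cKO FoB or library 1 or 3 of cKO GCB (-0.83, adjusted p = 0.0661, without library 1). Of 7 tested dendritic cell markers 5 fell, such as Siglech (-2.35 ± 0.36), and 1, the receptor gene Flt3 (3.67 ± 0.16), rose, and without library 3 of cKO FoB 2 fell and without library 3 of cKO GCB 3. Of 6 tested neutrophil markers 3 fell, 1 without library 2 of cKO FoB and 0 without library 3 of cKO FoB or library 1 of cKO GCB. Of 6 tested erythroid markers 1 rose, Hbb-bt, and the 1 tested platelet marker did not pass. Of 2 tested stromal markers 1 fell, Pecam1, and Cdh5 did not pass. Pecam1 is also a member of the naive follicular list. It gave 9569, 8490 and 10138 reads in FoB and 2798, 2140 and 2132 in GCB, so its fall is no measure of stromal cells. Without library 2 or 3 of cKO FoB or library 2 of cKO GCB 0 erythroid markers rose, and in the last case 1 fell. Without library 1 of either group 2 stromal markers fell, and without library 1 of cKO GCB the platelet marker fell. The follicular dendritic and stromal genes Cxcl13, Pdpn, Col1a1 and Col3a1 gave 0 or 1 read in each cKO library. Markers of marginal zone and B-1 cells, summed over 14, went from 2912 to 3166 in FoB to 1056 to 1277 in GCB, and 6 fell, among them Cd1d1 (-3.03 ± 0.18) and Notch2 (-2.79 ± 0.15), and 2 rose. The part of these cells in the results was not tested.

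The same cell type difference in WT mice was close in extent. In WT 4821 genes were higher and 4702 lower, and 8564 were called in the same direction in both genotypes, 90.5% of the cKO calls and 89.9% of the WT calls. 5 were called in opposite directions. The test of the difference itself, cKO minus WT, called 36 genes (0.263% of those tested), all with the more positive value in cKO, and 1008 genes had an unadjusted p under 0.05. Of the 36, 24 fell from FoB to GCB in both genotypes and fell less in cKO, 4 rose in both and rose more in cKO, 4 rose in cKO alone by these calls, 3 fell in WT alone by these calls and 1 rose in cKO and fell in WT. Against WT GCB, 34 of the 36 were higher in cKO GCB and 0 lower, while over all genes tested 264 were higher and 29 lower. In FoB none of the 36 differed between genotypes by edgeR (over all genes tested in FoB, 0 passed and 299 had an unadjusted p under 0.05). The count of 36 depended on single libraries. It was 6, 8 and 9 without cKO FoB 1, 2 and 3, 8 and 153 without cKO GCB 2 and 3, 23 and 9 without WT FoB 1 and 3, and 8, 20 and 11 without WT GCB 1, 2 and 3. Without the block 1 gene was called, Dglucy. Over all genes tested 6960 of 13708 had the more positive value in cKO. Markers of some other cells lay mostly on that side. They were 16 of 17 T cell markers (median difference 1.10), 10 of 10 natural killer cell markers (0.69) and 10 of 14 marginal zone and B-1 markers (0.52). Of these 0, 0 and 2 were called. Erythroid markers did so in 5 of 6 cases (0.99) and dendritic cell markers in 4 of 7 (0.29). Macrophage markers did so in 5 of 10 (-0.18) and neutrophil markers in only 1 of 6 (-0.31). None of these 4 lists had a member called. Summed unscaled levels in GCB were 89.0 to 112 CPM in cKO and 74.9 to 87.3 in WT for T cell markers, and 18.2 to 24.0 and 12.8 to 15.3 for natural killer cell markers. Most reads of the T cell sum were again from Lck, with 1793, 1496 and 1600 in cKO GCB and 1506, 1732 and 1817 in WT GCB. The part of these other cells in the difference was not tested.

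**Figure D4:**
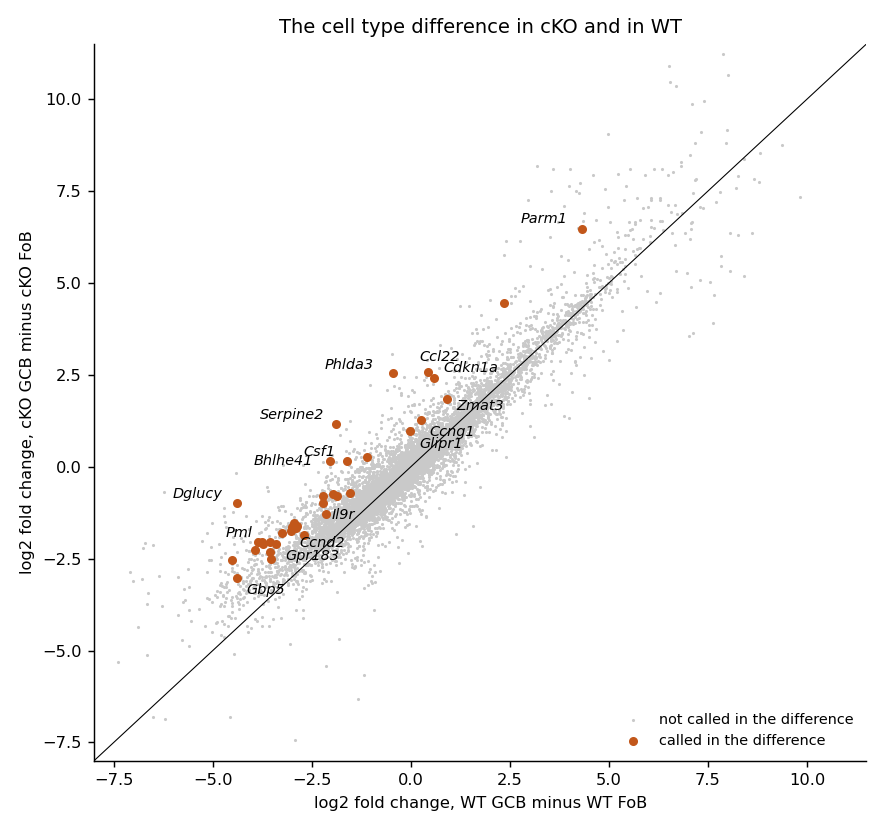
Log2 fold change of GCB minus FoB in cKO (vertical axis) against WT (horizontal axis), 1 point per gene, with the line of equal values. The 36 genes called in the difference (orange) all lie above the line, with Dglucy at -0.99 in cKO and -4.38 in WT.

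Dglucy, the D-glutamate cyclase gene (chr12:100779057-100872610, on the same chromosome as Rock2), had the smallest adjusted p. It measured 22.1, 19.9 and 19.3 CPM in FoB and 11.8, 10.0 and 9.16 CPM in GCB in cKO, and 19.2, 16.2 and 14.1 CPM in FoB and 0.917, 0.668 and 0.762 CPM in GCB of WT. All WT GCB libraries were below 1 CPM while all cKO GCB libraries were at 9.16 CPM or more, a difference of 3.39 ± 0.19 between the cell type changes (adjusted p = 1.44e-06). It passed in all 20 alternatives tried. Of the other genes named here, Ccng1 passed in 18 of 20, Csf1 and Il9r in 17, Pdlim1 in 16, Serpine2 in 16 of 19, Glipr1 in 12, Gpr183 in 11 and S100a10 in 10. The remainder passed in fewer than 10, with Ccl22, Ccnd2, Ckap4 and Pml at 8, Limk1, Parm1 and Phlda3 at 7, Zmat3 at 6, Bhlhe41 and Ccr6 at 5 and Cdkn1a at 3. Serpine2, a secreted protease inhibitor gene, measured 2.46, 2.02 and 2.50 CPM in FoB and 4.47, 6.72 and 4.51 CPM in GCB in cKO, and 2.36, 1.64 and 1.36 CPM in FoB and 0.535, 0.459 and 0.441 CPM in GCB of WT (3.05 ± 0.39, adjusted p = 0.00681). It rose in cKO and fell in WT. The growth factor gene Csf1 changed by 0.14 in cKO and -1.61 in WT (0.00681 for the difference), the cytokine receptor gene Il9r by -0.99 and -2.22 (0.00681), and the cytoskeletal adaptor gene Pdlim1 by -0.74 and -1.96 (0.00681), all given as adjusted p.

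Of the p53 list 4 of 18 tested members were called, where 0.263% of all genes were, and of these Cdkn1a, Zmat3 and Phlda3 were lost in most alternatives. This list was chosen with earlier results of these data known, so the count describes the list and is no test of it. Ccng1, given above for cKO, measured 103, 132 and 90.3 CPM in FoB and 125, 154 and 106 CPM in GCB of WT, where the groups overlapped. The difference was 1.03 ± 0.12 (adjusted p = 0.00681). Phlda3, a p53 target that inhibits AKT, changed by 2.56 in cKO and -0.45 in WT (adjusted p = 0.0233), at levels under 5 CPM. Zmat3 changed by 1.83 and 0.92 (adjusted p = 0.0335), and Cdkn1a by 2.42 and 0.58 (adjusted p = 0.0446). Glipr1, named for its small adjusted p in the difference and not in the list, is also known to respond to p53. It changed by 0.96 and -0.02 (adjusted p = 0.0134). Across the list 14 of 18 members had the more positive value in cKO, with medians of 0.67 in cKO and 0.21 in WT. The median over all genes tested was -0.02 in cKO.

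Of the naive follicular list 2 of 20 genes were called in the difference, Gpr183 and Ccr6, and of the memory precursor list 3 of 15. Of all genes tested 0.263% were called, and both lists were chosen with earlier results of these data known. Ccnd2, Pml, S100a10, Bhlhe41 and Ckap4, also given here, are not in the naive list. Medians were -2.10 in cKO and -2.76 in WT for the naive list, with 13 of 20 more positive in cKO, and -1.11 and -2.09 for the memory list, with 13 of 15. Gpr183 fell by -2.10 in cKO and -3.40 in WT, where GCB measured 7.49, 12.6 and 11.1 CPM (difference 1.31 ± 0.19, adjusted p = 0.0176). Ccnd2 fell by -1.74 and -3.04 (1.295 ± 0.20, adjusted p = 0.0233), with WT GCB at 20.1, 28.4 and 21.7 CPM. Every cKO GCB library was above every WT GCB library for both genes. The chemokine receptor gene Ccr6 fell by -2.11 and -3.73 (adjusted p = 0.0444), Pml by -2.06 and -3.76 (adjusted p = 0.0335), and S100a10, which encodes a partner of annexin A2, by -2.04 and -3.86 (adjusted p = 0.0233). Bhlhe41, a repressor of B-1 and memory cells, changed by 0.15 in cKO and -2.05 in WT (adjusted p = 0.0384). Ckap4, which encodes a membrane protein of the endoplasmic reticulum, changed by -0.80 and -2.21 (adjusted p = 0.0225). Summed levels of the naive follicular list were 4212, 4342 and 3307 CPM in cKO GCB and 3999, 4481 and 3750 CPM in WT GCB, and these overlapped. A large part of each sum was Cd24a, the one member that rose in cKO GCB. It measured 1251, 1791 and 1123 CPM in cKO GCB and 1703, 2098 and 1276 CPM in WT GCB. The overlap of the sums therefore does not show that the members that fell were alike in the genotypes. The summed germinal center markers were at 7508, 8014 and 8500 CPM in cKO GCB and 9511, 8674 and 9271 CPM in WT GCB, so each cKO library was below each WT library. The part of that difference in these genes was not tested.

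**Figure D5:**
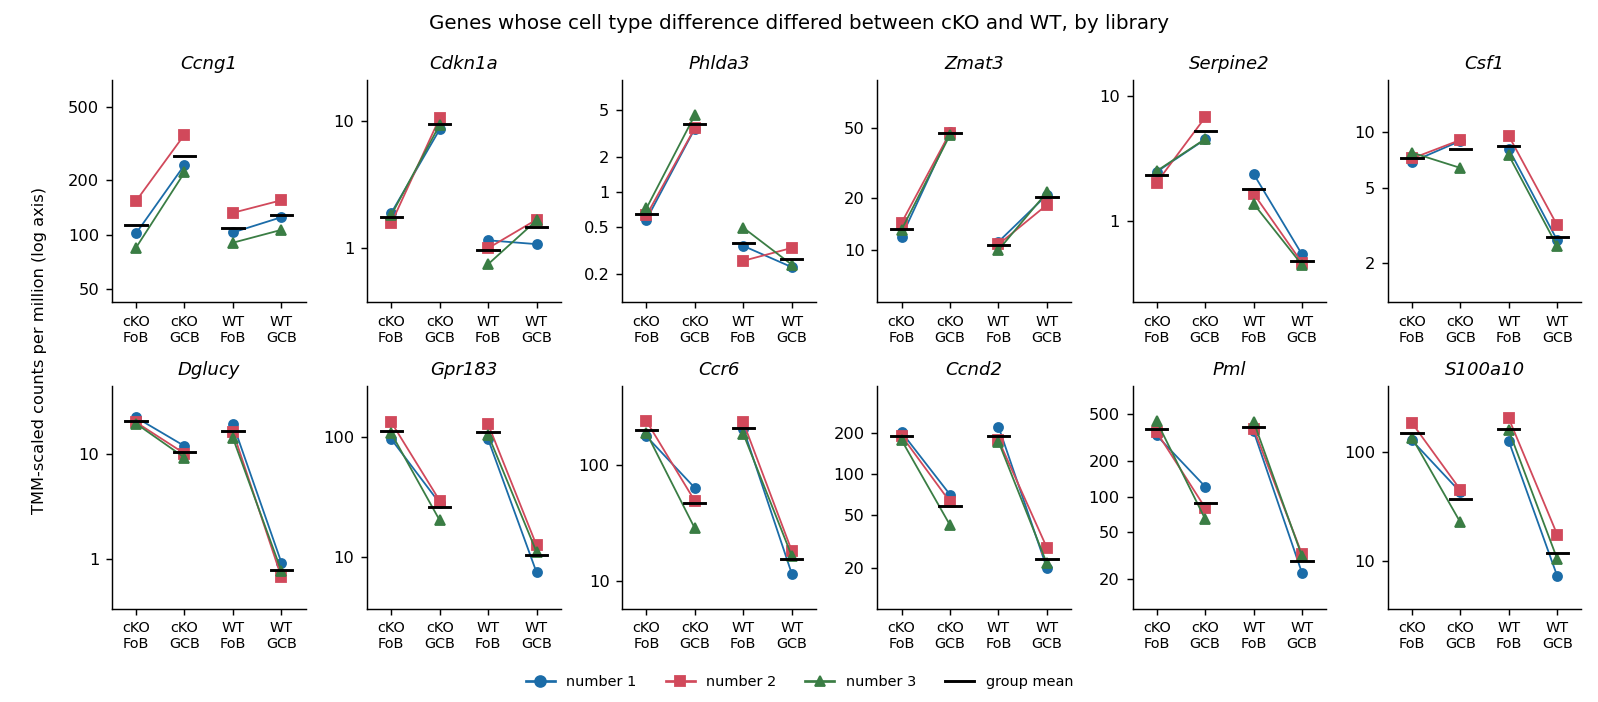
CPM on a log axis in all 12 libraries for 12 of the 36 genes whose cell type difference differed between genotypes, with lines joining libraries of the same number and black bars at group means. The genotypes lie close together in FoB for most of these genes, and the cKO GCB libraries lie above the WT GCB libraries in each panel.

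The chemokine gene Ccl22 rose by 2.58 in cKO, while its value of 0.44 in WT did not pass (adjusted p = 0.0349 for the difference). Parm1, whose locus overlaps another gene, rose by 6.47 in cKO and 4.31 in WT (adjusted p = 0.0335). Its GCB levels of 36.8, 44.6 and 39.6 CPM in cKO and 31.6, 39.8 and 35.4 CPM in WT overlapped, and its FoB levels were 0.273, 0.757 and 0.362 CPM in cKO and 2.36, 1.34 and 1.53 CPM in WT, with log2 differences of cKO minus WT of 0.18 ± 0.16 in GCB (adjusted p = 0.704) and -1.98 ± 0.32 in FoB (adjusted p = 0.151). Limk1, the LIM kinase that ROCK phosphorylates, fell by -1.66 in cKO and -2.89 in WT (adjusted p = 0.0294) and was the only gene of the ROCK list called in the difference. For cholesterol synthesis 0 of 22 genes passed the test of the difference by edgeR, and 21 of 22 had the smaller value in cKO, with medians of 1.09 in cKO and 1.35 in WT. Hmgcs1 changed by 1.29 ± 0.11 in cKO and 1.696 ± 0.11 in WT (difference -0.41 ± 0.16, adjusted p = 0.499) and Sqle by 1.68 and 2.06 (difference -0.39 ± 0.16). The cell type difference of Rock2 was 0.26 ± 0.12 in WT, and its difference between genotypes was -0.10 ± 0.16 (adjusted p = 0.996).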

How the data were processed

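RNA-seq counts of 6 cKO libraries, with 6 WT libraries in the same fit, were analysed, and 4 ATAC-seq samples were not used here. The authors deposited raw read counts per Ensembl gene (25640 genes), with log2 CPM and a table of cKO against WT with log2 fold changes and p-values. Those deposited log2 values and p-values were not used here, and gene positions and overlap marks came from that table and RefSeq on GRCm38.p6 (mm10). Per the submitters' processing notes, Bowtie2, MACS2, edgeR and mm10 were used, with versions, counter, annotation and strand use not given in the sources used here. Reads of overlapping genes may therefore be shared, and the authors' deposited table marks Ptpn14, Mef2b, Pou2af1, Foxp1, Cd38, Bcl2, Foxm1, Itpr1, Ctss, Slc2a3, Igkc, Bach2 and Parm1 as such. Other named genes host noncoding RNAs, Rock2, Rock1, Fas, Dnmt1 and Plxnb2 among them.

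Counts were fitted in R 4.3.3 with edgeR 4.0.16 (TMM factors, filterByExpr on 4 groups, quasi-likelihood F test, group plus replicate number, 6 residual degrees of freedom, Benjamini-Hochberg adjustment, threshold 0.05), and glmTreat tested against a log2 fold of 1. The filter kept 13708 genes, which held at least 99.93% of each library's counts, and the biological coefficient of variation was 0.114. Gene IDs matched reference symbols in 25607 cases. Total counts ran from 23349512 to 26967943, and 0 pairs of libraries were identical. No row lacked a gene ID (0), and the count columns of all 12 RNA libraries were used.

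The replicate numbers come from the sample titles. The number was set as a block in the plan of the comparison. Same-numbered GCB and FoB libraries of cKO deviated together from their group means (correlations of 0.580 to 0.676 in 3 pairs). Differently numbered ones did not (-0.617 to 0.0952). Deviations from a mean of 3 libraries sum to 0, so the mostly negative values for different numbers follow from the positive ones and add no evidence of their own. In a check on simulated counts for the 13708 genes in cKO GCB minus cKO FoB, the block fit recovered 91% of genes changed by a log2 of 1 and 100% of those changed by 2, with 12 false calls. The fit without the block recovered 36% and 88%, with 0. The counts were simulated from the fit with the block, so its better recovery was built in. The check therefore cannot decide whether the block is needed. The changed genes were drawn from those with a mean of at least 1 CPM.

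The comparison, 41 gene lists and the rule for naming genes were chosen with earlier results of these data known. The rule took the 12 highest and 12 lowest fold changes among genes with adjusted p under 0.05, a mean of 20 CPM or more in the higher group, and separate groups (without antibody or T cell receptor segments and predicted genes), up to 3 members per list and direction, textbook genes, and the 10 smallest adjusted p in the difference between genotypes. Ccnb2, Cdk1, Cdc20, Top2a, Mcm5, Mcm6, S100a10, Limk1, Ccr6, Parm1, Ccl22, Cd22, Blk, Hba-a1 and the marker genes given by reads were added after their values were seen where the rule did not hold them. Alternatives were another normalization, DESeq2 1.42.0, other filters, no block, the cKO libraries alone and leaving out libraries or numbers. Some genes that the rule held are not reported here.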

Additional observations from a re-analysis of the deposited data

Results flagged for a closer look

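The cell type difference differed between genotypes for 36 genes by the test of that difference in edgeR, and the 20 of them named in the text are given here as the log2 difference of cKO minus WT. The group led by Dglucy (3.39), Serpine2 (3.05), Phlda3 (3.01) and Bhlhe41 (2.20) had the larger values, with Parm1 at 2.16 and Ccl22 at 2.14. Receptors and cytokine genes followed, with Csf1 at 1.75, Ccr6 at 1.62, Gpr183 at 1.31 and Il9r at 1.23. The cell cycle and p53-linked genes Cdkn1a (1.84), Ccnd2 (1.295), Ccng1 (1.03), Glipr1 (0.98) and Zmat3 (0.92) were also called. The remaining genes were S100a10 (1.82), Pml (1.701), Ckap4 (1.42), Limk1 (1.23) and Pdlim1 (1.21). All 36 had 3 libraries per group, and the count changed with most single libraries, as given above. No group held the 4 samples needed to ask whether one library stood apart.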

How the results depend on the processing

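Genes called higher in cKO GCB numbered 3402 to 4702 and lower 2982 to 5046 over the alternatives. DESeq2 with the block gave 4651 higher and 4696 lower, no filter on low counts 4663 and 5046, a filter of 5 CPM in 3 libraries 3637 and 3901, DESeq2 size factors in edgeR 4702 and 4800, and the cKO libraries alone 4515 and 4501. Leaving out a library or number gave 3842 to 4678 higher and 3671 to 4724 lower. Beyond 2-fold, leaving out a single library gave 1437 to 1679 higher and 1118 to 1438 lower.

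Without the replicate block 3402 genes were higher and 2982 lower, 876 lower beyond 2-fold, and 1 gene was called in the difference between genotypes. Counts of list members that moved by over 1.5 times are given beside the lists for single libraries, and mostly for the block. Without the block there were also 2 B cell receptor signaling genes higher, 1 dark zone gene lower, 2 dendritic, 1 macrophage and 0 neutrophil markers lower, and 0 macrophage and erythroid markers higher. With no filter 4 macrophage markers were higher and 3 mitochondrial genes lower. Of the named genes, Rock1, Cxcr4, Tet2, Cd3e and Lyz2 no longer passed without the block.

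The difference between genotypes was the result that moved most. Against 36 genes with the more positive value in cKO and 0 with the more negative, DESeq2 size factors gave 22, DESeq2 gave 158 and 3, no filter 357 and 4, and the stricter filter 10. Leaving out a library or number gave 2 to 153. The cause was not tested. Across single genes in cKO, 2590 values over the alternatives kept direction and call, 23 kept direction and lost the call, and 5 changed sign, all in genes not called. Rock2 ranged from -0.089 to 0.275 with a library or number left out, and its difference between genotypes from -0.294 to 0.094. Bhlhe41 ranged from -0.195 to 0.496. Only 3 libraries per group limit what could be called among small changes and low counts.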
